A study of Gallus gallus with 9 samples.

Results

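Smooth muscle and contractile genes were followed in cell fractions of the chicken embryonic gonad. The 10 chosen symbols were CALD1, ACTA2, ACTG2, MYH11, TAGLN, MYLK, CNN1, DES, MYOCD and HAND2. A gene was represented by the probe set that carried its symbol in the platform annotation and had the highest mean over all 9 arrays. CNN1 was not listed in that annotation and no value is given for it, which left 9 genes out of 13009 and 17 probe sets out of 38439. The samples were RNA preparations from gonads of WL embryos at 6.5 days, which magnetic sorting (MACS) had parted into 3 samples labelled PGC and 6 labelled GSC, each on its own Affymetrix chicken array. PGC commonly stands for primordial germ cell, while the labels give GSC and WL only as abbreviations. The labels name no treatment, genotype, embryonic sex or sorting antigen, and nothing says whether the replicates came from separate embryo pools. The p-values therefore rest on the spread among these samples alone, part of which may be technical, and the small number of arrays limits every estimate.

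Smooth muscle cells shorten when calcium, through calmodulin, activates myosin light chain kinase, which phosphorylates the light chain of myosin so that it can pull on actin. Caldesmon, calponin and transgelin sit on the actin filament, desmin links the contractile units, and myocardin drives the gene programme together with serum response factor (SRF). Many of these proteins, caldesmon and light chain kinase among them, also work in the actin cytoskeleton of cells that are not muscle. In the gonad, contractile cells surround vessels and, later, tubules or follicles.

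Values are the deposited log2 expression values, so that a difference of 1 is a 2-fold difference. The 57 reporter probe sets on the array, which match no chicken gene, served as a guide to background: 95% of their values lay below 2.88, called the reporter mark. Pairs of GSC arrays correlated at 0.987 to 0.996, pairs of PGC arrays at 0.974 to 0.990, and pairs across the fractions at 0.930 to 0.969. PGC replicate 3 was the PGC array nearest to GSC (0.956 to 0.969). The labels were checked against marker genes: all 9 measured germ cell markers were higher in PGC and 10 of 11 gonadal somatic markers were lower. Among all genes, 22.5% were higher and 19.5% lower. DDX4, a germ cell RNA helicase, measured 9.40, 9.51 and 8.36 in PGC replicates 1, 2 and 3 against 4.31 to 4.82 in GSC. GATA4, a somatic transcription factor, measured 2.60, 3.57 and 5.44 against 6.25 to 6.57. DAZL, a germ cell RNA-binding protein, lay between 6.08 and 6.55 in GSC, above the reporter mark on all 6 arrays. LHX9, a transcription factor of the genital ridge, lay between 5.45 and 6.77 in PGC, above the mark on all 3. In such preparations, fewer cells of a type and less RNA per cell cannot be told apart.

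Of the 9 measured genes, 4 were lower in PGC (CALD1, HAND2, ACTG2 and MYOCD), 0 were higher and 5 did not pass (limma, Benjamini-Hochberg adjusted p under 0.05 over all genes). Over all 13009 genes, 19.5% were called lower and 22.5% higher, against 44.4% and 0 among these 9. Their median log2 change was -0.37, beside -0.017 over all genes. The size of the drop was uneven, from 3.62-fold for CALD1 to no measurable signal for ACTA2 and MYH11, which lay below the reporter mark on all 9 arrays. Without PGC replicate 3, 7 of the 9 were lower and 0 higher, beside 22.9% and 25.5% of all genes. Those 7 included ACTA2, MYOCD (7 of 9 values under the mark) and DES, whose PGC replicates 1 and 2 lay under it. With all arrays and dim genes filtered out, ACTA2, MYH11 and MYOCD had no value, and 3 members and 2466 genes in all were lower. How many genes the filter kept is not given here, so these counts stand without shares and are not compared. Without PGC replicate 1 or 2 only CALD1 was lower, beside 1914 and 2111 of all 13009 genes. Without GSC replicate 2 the number was 2, beside 2321 of all genes (2543 with all arrays).

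**Figure D1:**
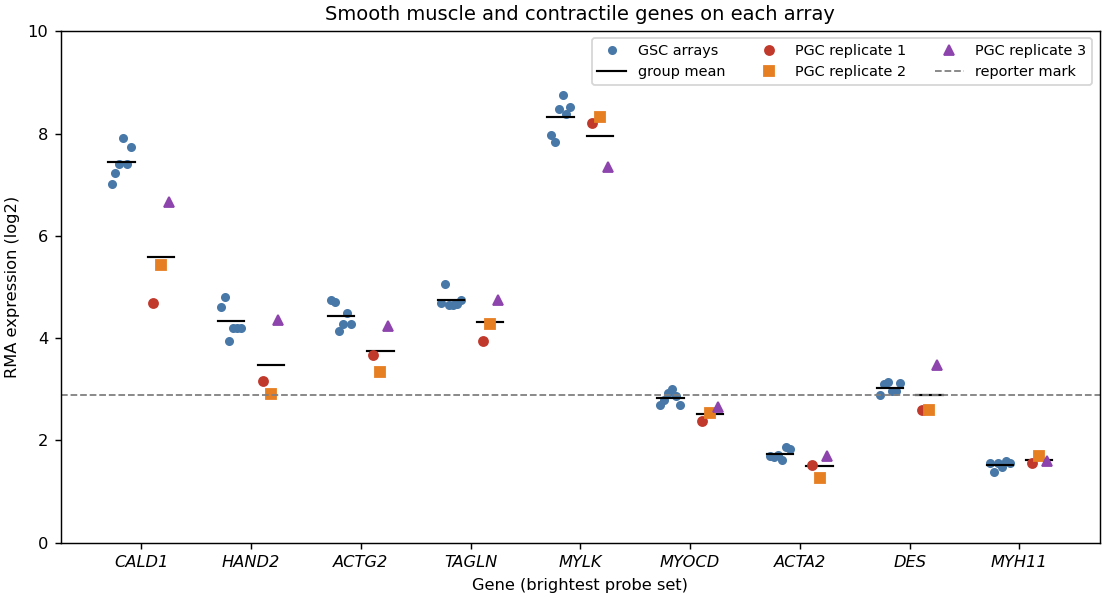
Log2 expression of the 9 measured genes on each array, ordered by their change: blue circles are the 6 GSC arrays, the other symbols the 3 PGC arrays, short black lines the group means, and the dashed line the reporter mark of 2.88. CALD1 and MYOCD are the genes whose 3 PGC arrays lie below every GSC array, though MYOCD has 7 of its 9 values under the mark. ACTA2 and MYH11 stay below the mark on all 9 arrays.

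CALD1 encodes caldesmon, which binds actin and tropomyosin and restrains myosin. It occurs in a longer smooth muscle form and a shorter form of other cells, and which of them each probe set reads is unknown here. Its brightest probe set measured 4.69, 5.43 and 6.66 in PGC replicates 1, 2 and 3, and 7.02, 7.40 and 7.91 as the lowest, median and highest GSC value. All PGC arrays lay below all GSC arrays, an arrangement found in 16.7% of all genes and in 2 of these 9. The opposite arrangement held for 19.7% of all genes and for 0 of these 9. The change was -1.86 ± 0.35 (SE, limma adjusted p = 0.0013), between -2.62 and -1.09 by its 95% interval, and 0.54% of all genes had a change as low or lower. The 3 PGC values spread more (SD 1.00) than the 6 GSC values (SD 0.33), so that the pooled SE understates the error on the PGC side.

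In a fit over all probe sets, where 14.6% were called lower and 13.8% higher, 9 of the 17 were lower and 0 higher. All 4 probe sets of CALD1 were among the 9. Their changes were -1.36 ± 0.37, -1.86 ± 0.35, -2.34 ± 0.30 and -2.49 ± 0.33 (SE, limma adjusted p at most 0.0182). In the last of these PGC replicate 1 lay at 2.53, under the reporter mark, so that the fold is given as at least 5.17. The probe set with the smallest change overlapped, PGC replicate 3 at 5.69 standing above the lowest GSC value of 5.47, and it no longer passed when PGC replicate 1 (-0.90) or replicate 2 (-1.27) was left out (adjusted p = 0.0969 and 0.0699). In each of the 4 the PGC arrays came in the same order, replicate 1 lowest and replicate 3 highest.

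TAGLN encodes transgelin (SM22), an actin-bundling protein and an early smooth muscle marker. It measured 3.95, 4.27 and 4.74 in PGC replicates 1, 2 and 3, and in GSC 4.64, 4.67 and 5.07 as the lowest, median and highest value. PGC replicates 1 and 2 lay below every GSC array and replicate 3 within the GSC range. The change of -0.42 ± 0.16 did not pass (SE, limma adjusted p = 0.0594), and without PGC replicate 3 it was -0.63 and passed (adjusted p = 0.0029). Without PGC replicate 1 it shrank to -0.23 and without PGC replicate 2 it was -0.40, neither of which passed (limma adjusted p = 0.3006 and 0.1445).

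**Figure D2:**
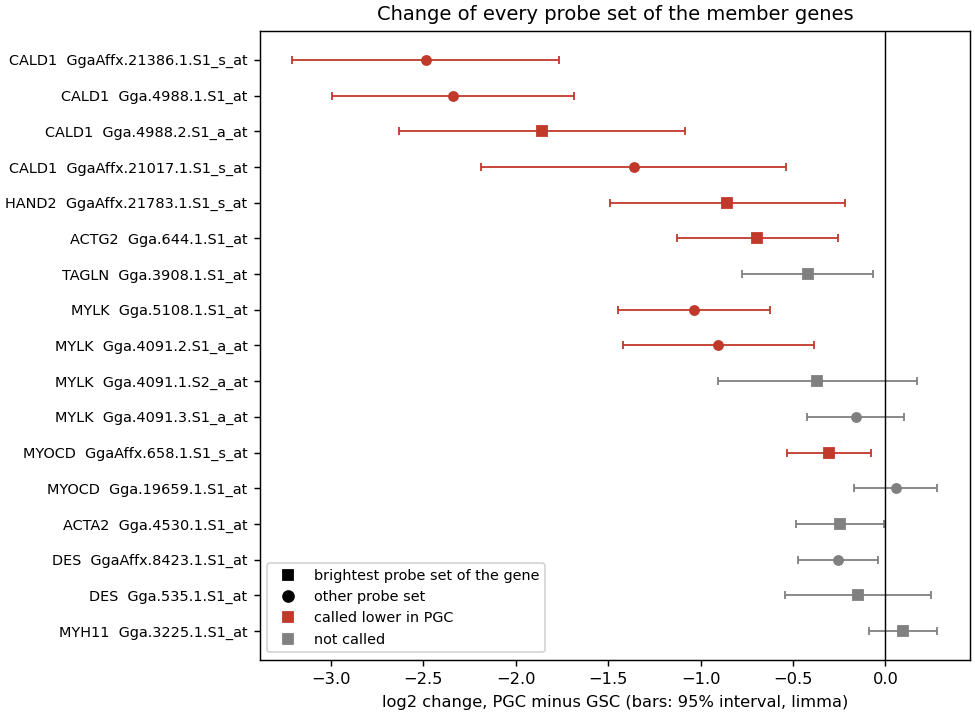
Log2 change, PGC minus GSC, of all 17 probe sets of the member genes, with 95% intervals from limma: squares are the brightest probe set of a gene, circles its other probe sets, red marks those called lower and grey those not called. The 4 CALD1 probe sets lie furthest to the left, and the 4 MYLK probe sets split into 2 called and 2 not called.

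The actin genes came next in the contractile chain. ACTG2, the gamma actin of enteric smooth muscle, measured 3.67, 3.34 and 4.23 in PGC replicates 1, 2 and 3, and 4.13, 4.39 and 4.75 as lowest, median and highest in GSC. PGC replicates 1 and 2 were below every GSC array, while replicate 3 fell inside the GSC range. ACTG2 was 1.62-fold lower in PGC, with a change of -0.69 ± 0.20 (SE, limma adjusted p = 0.0151). Leaving out PGC replicate 1 gave -0.66 and leaving out replicate 2 gave -0.49, neither of which passed (adjusted p = 0.0568 and 0.0853).

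ACTA2, the alpha actin of vascular smooth muscle and the usual marker of that cell, had 1 probe set. It lay between 1.26 and 1.69 in PGC and between 1.63 and 1.88 in GSC, under the reporter mark on all 9 arrays. The fitted change of -0.24 ± 0.11 did not pass (SE, limma adjusted p = 0.1080). Values at this level are not read as a difference, also where the call was reached without PGC replicate 3 (-0.34, adjusted p = 0.0270).

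Birds carry further actin genes for other cells, and of these ACTA1 and ACTC1 were higher in PGC. ACTA1, the skeletal muscle actin, measured 7.65, 7.04 and 6.85 in PGC replicates 1, 2 and 3 and 5.06 to 5.54 in GSC, 3.73-fold higher in PGC (change 1.90 ± 0.17 SE, limma adjusted p = 1.160e-05). ACTC1, the cardiac actin, measured 6.07, 4.93 and 4.78 against 2.81 to 3.22, where 2 GSC arrays lay below the mark, and was at least 4.76-fold higher. ACTG1, a cytoplasmic actin, was lower by a small amount (-0.30 ± 0.09 SE, limma adjusted p = 0.0172), but its other probe set was called in the opposite direction and the call was lost without PGC replicate 1 or 2. ACTB, the other cytoplasmic actin, lay at 10.90 to 11.04 in PGC and 11.06 to 11.27 in GSC and did not pass (-0.17 ± 0.09 SE, limma adjusted p = 0.1601). Of its 4 probe sets, 1 was called higher in PGC and 0 lower in the fit over all probe sets. Actin coding sequences are nearly identical, and the part of the transcript that each probe set reads was not examined here, and cross-hybridisation between these genes was not tested.

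**Figure D3:**
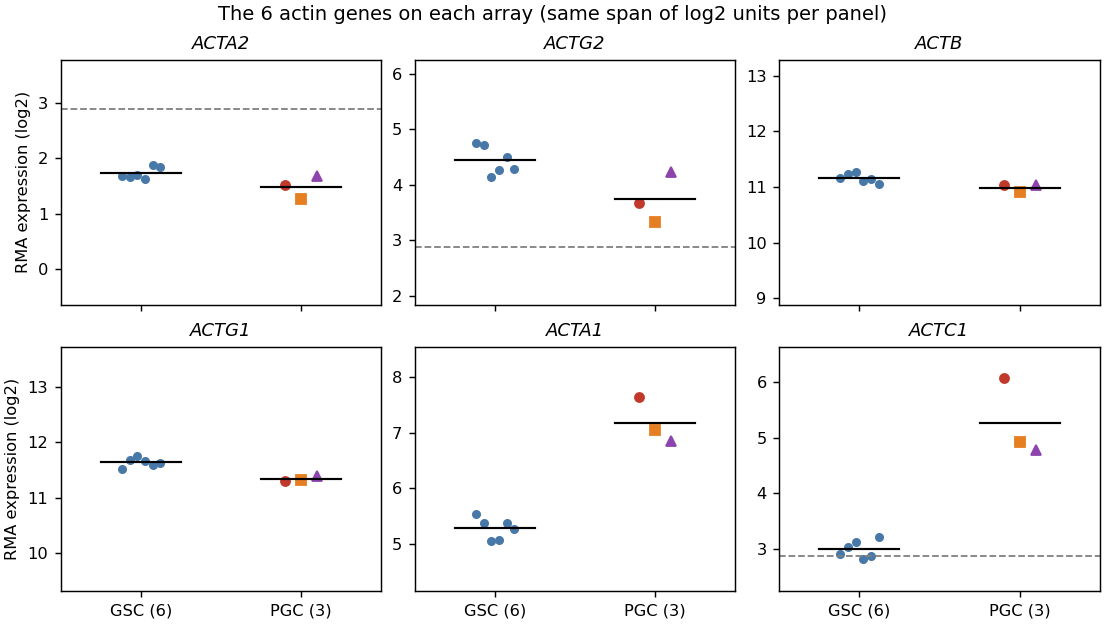
Log2 expression of 6 actin genes on each array, with panels of equal span in log2 units: blue circles are GSC arrays, the red circle, orange square and purple triangle PGC replicates 1, 2 and 3, black lines group means, and the dashed line the reporter mark of 2.88 where it lies in the panel. ACTA1 and ACTC1 lie higher on all 3 PGC arrays, and ACTA2 stays below the mark throughout.

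MYH11 encodes the heavy chain of smooth muscle myosin, a late and selective marker of contractile smooth muscle. It lay at 1.55 to 1.70 in PGC and 1.38 to 1.60 in GSC, below the reporter mark on all 9 arrays, and did not pass (0.10 ± 0.09 SE, limma adjusted p = 0.4327). It was the only one of the 9 genes with a fitted change above 0.

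MYLK encodes myosin light chain kinase, and the same gene gives rise to telokin, a short protein from its end. The brightest of its 4 probe sets measured 8.20, 8.32 and 7.35 in PGC replicates 1, 2 and 3, and 7.84, 8.44 and 8.76 as lowest, median and highest in GSC. Here PGC replicates 1 and 2 lay inside the GSC range and replicate 3 below it, whereas replicate 3 was the highest PGC array for CALD1. The change of -0.37 ± 0.24 did not pass (SE, limma adjusted p = 0.2585).

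The other probe sets of MYLK did not give the same answer. One fell by 0.90 ± 0.23 (SE, limma adjusted p = 0.0136), with PGC values of 5.74, 5.88 and 5.14 below a GSC range of 5.93 to 6.98. Another fell by 1.03 ± 0.19 (adjusted p = 0.0017), and since all 3 of its PGC arrays were under the reporter mark the fold is at least 1.41. The last, at 3.30 to 3.45 in PGC and 3.27 to 3.74 in GSC, did not pass (-0.16 ± 0.12 SE, limma adjusted p = 0.3766). With the mean of all 4 probe sets in place of the brightest, MYLK was lower by 0.62 and passed (adjusted p = 0.0087), and with the most variable probe set it passed as well (-1.03, adjusted p = 0.0011). The call for MYLK therefore rests on the choice of probe set. The order of the PGC arrays differed as well. PGC replicate 3 was lowest in the brightest probe set and in the one that fell by 0.90. In the one that fell by 1.03, PGC replicates 1, 2 and 3 measured 2.52, 2.09 and 2.41. In the last they measured 3.40, 3.30 and 3.45, with replicate 3 highest.

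DES encodes desmin, the intermediate filament protein of muscle cells. It measured 2.59, 2.59 and 3.48 in PGC replicates 1, 2 and 3 against 2.89 to 3.14 in GSC. PGC replicate 3 was the highest of all 9 arrays and the other PGC arrays, both under the reporter mark, were the lowest. The change of -0.15 ± 0.18 did not pass (SE, limma adjusted p = 0.5531). Without PGC replicate 3 it was -0.45 and passed (adjusted p = 0.0042). Its other probe set gave -0.26 ± 0.10 and did not pass either (limma adjusted p = 0.0751). There PGC replicates 1, 2 and 3 measured 2.60, 2.71 and 2.68, all under the mark and below the GSC range of 2.73 to 3.10. The high value of PGC replicate 3 was thus seen in the brighter probe set only.

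Of the transcription factors, HAND2, a basic helix-loop-helix protein of heart, limb and visceral mesenchyme, measured 3.16, 2.91 and 4.35 in PGC replicates 1, 2 and 3. In GSC it lay at 3.95, 4.21 and 4.79 as lowest, median and highest. Replicates 1 and 2 were below every GSC array and replicate 3 was above the GSC median. HAND2 was 1.81-fold lower (-0.86 ± 0.29 SE, limma adjusted p = 0.0319). The call was lost without PGC replicate 1 (-0.70), PGC replicate 2 (-0.57), GSC replicate 1 (-0.80) or GSC replicate 2 (-0.76), with adjusted p of 0.0591 to 0.1638.

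MYOCD encodes myocardin, the partner of SRF on smooth muscle genes. Its brighter probe set lay at 2.38, 2.54 and 2.66 in PGC replicates 1, 2 and 3 and at 2.69 to 3.00 in GSC. The PGC arrays were all below the GSC arrays, but 7 of the 9 values were under the reporter mark, so that no fold is given for the fitted change of -0.30 ± 0.11 (SE, limma adjusted p = 0.0430). Leaving out any one of 6 arrays, GSC replicates 2 to 5 and PGC replicates 1 and 2, ended the call. Its other probe set, under the mark on all 9 arrays, did not pass (0.06 ± 0.10 SE, limma adjusted p = 0.7439). By the maker's naming, probe sets ending in s_at can read transcripts of more than 1 gene. The names of 4 of the 17 end so: the HAND2 one, the brighter MYOCD one and a pair for CALD1. Whether these 4 read more than 1 gene was not examined.

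The 3 PGC preparations were not alike. PGC replicate 3 lay within the range of the GSC arrays for TAGLN, ACTG2, HAND2 and the dim ACTA2 and MYH11, above it for DES, and below it for CALD1, MYLK and MYOCD. These positions are those of the brightest probe sets. In the other DES probe set PGC replicate 3 lay below the GSC range, and its place varied among the other MYLK probe sets. The distance of PGC replicate 3 from the GSC mean was -0.79 for CALD1, against -2.76 and -2.02 for PGC replicates 1 and 2. For HAND2 the distances were 0.02, -1.17 and -1.42 in the order replicate 3, 1 and 2. For MYLK they were -0.97, -0.13 and -0.0038 in that order. Among GSC arrays, replicates 1 and 2 gave the lowest CALD1 (7.02 and 7.22) and MYLK values (7.98 and 7.84), and the highest ACTG2 (4.75 and 4.71) and HAND2 values (4.61 and 4.79).

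**Figure D4:**
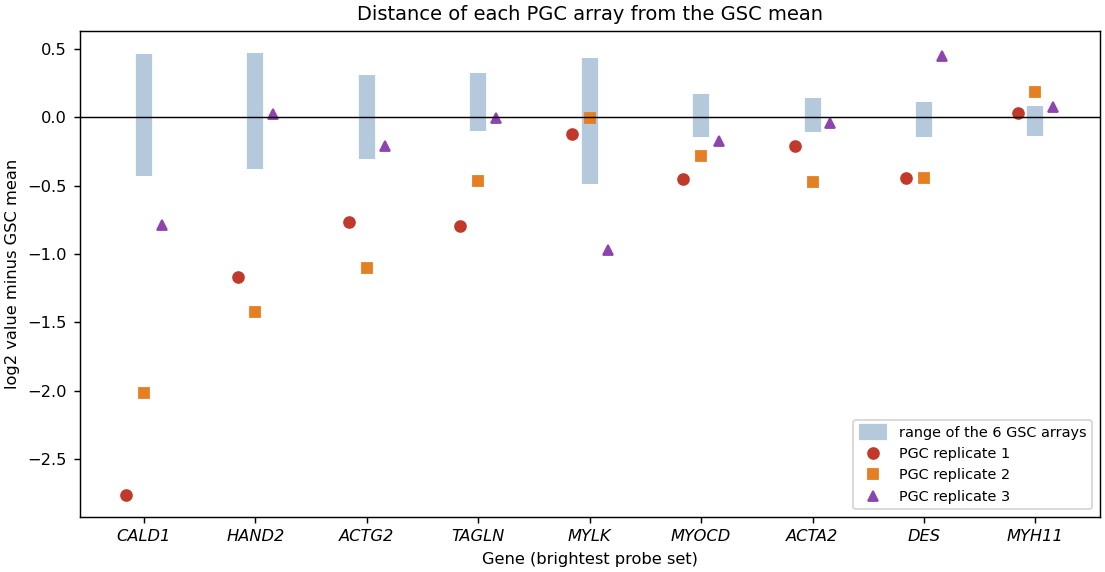
Log2 value of each PGC array minus the mean of the GSC arrays for the 9 genes: blue bars span the 6 GSC arrays and symbols are PGC replicates 1, 2 and 3. PGC replicate 3 (purple triangles) is the PGC array nearest the GSC mean for CALD1, HAND2, ACTG2 and TAGLN, and the furthest for MYLK at -0.97. Each gene is shown by its brightest probe set only.

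Markers of other cells moved between the same arrays. The mean log2 level of 11 gonadal somatic markers was 4.88, 5.40 and 6.38 in PGC replicates 1, 2 and 3 against 7.22 to 7.36 in GSC. That of 14 endothelial markers, of which 11 were lower and 0 higher in PGC, was 4.20, 4.94 and 5.63 against 5.87 to 6.29. The endothelial shares were 78.6% and 0, beside 19.5% lower and 22.5% higher among all genes. Of 8 erythroid markers 3 were lower (37.5%) and 0 higher, with means of 7.53 to 8.33 in PGC and 8.32 to 8.93 in GSC. The 3 were HEMGN (-1.45), EPB42 (-1.18) and RHAG (-0.77). The RHAG call was lost when GSC replicate 1, 2, 4, 5 or 6 or PGC replicate 1 or 2 was left out. Of 8 mesonephric markers 6 were higher (75%) and 1 lower (12.5%), with means of 6.05 to 6.44 in PGC and 3.55 to 4.11 in GSC. PAX2 was the lower gene (-0.62), with 0 of its 2 probe sets called in the fit over all probe sets. Its call was lost when GSC replicate 1, 2 or 6 or PGC replicate 1 or 2 was left out. LHX1 did not pass (0.20). In control probe sets for the 2 ends of the ACTB transcript, the 3' end exceeded the 5' end by 0.51 to 0.92 in PGC and by 0.16 to 0.35 in GSC, whereas for GAPDH this difference was -0.13 to -0.0067 and -0.17 to 0.05. The part of these shifts in the results for the contractile genes was not tested.

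Pericytes, the mural cells of small vessels, share several contractile genes with smooth muscle. Of 10 measured pericyte markers, 6 were lower in PGC, 1 was higher and 3 did not pass, with a median change of -0.85 beside -0.017 over all genes. The called shares were 60% lower and 10% higher, beside 19.5% and 22.5% of all genes. ABCC9 and KCNJ8, the subunits of a potassium channel of mural cells that senses ATP, were 4.34-fold and 3.76-fold lower (changes -2.12 ± 0.34 and -1.91 ± 0.26 SE). ANGPT1, the ligand of the endothelial receptor TEK, was at least 2.13-fold lower, with 2 PGC arrays under the mark, and PDGFRB, a growth factor receptor of mural cells, 2.12-fold lower (limma adjusted p of these 4 at most 7.705e-04). In the fit over all probe sets, 1 of 2 was called lower for PDGFRB and 2 of 2 for each of ABCC9, KCNJ8 and ANGPT1. RGS5, a regulator of G protein signalling, was called lower (-0.43 ± 0.15 SE, limma adjusted p = 0.0389), a call lost when any one of 6 arrays was left out and made by none of its 3 probe sets in the fit over all probe sets. CSPG4 was also called lower (-0.89), with 1 of its 4 probe sets called in that fit. EBF1 (-0.82) and MCAM (0.035) did not pass, with 1 of 2 and 0 of 5 probe sets called. The 1 that was called higher, EBF2, lay under the mark on all 9 arrays, as did TBX2, which did not pass. The list mean was 3.58 to 4.22 in PGC and 4.42 to 4.78 in GSC. Without PGC replicate 3, 7 were lower (22.9% of all genes).

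Of 23 further genes of the smooth muscle apparatus, 7 were lower in PGC, 3 were higher and 13 did not pass, with a median change of -0.38. This came to 30.4% lower and 13.0% higher, beside 19.5% and 22.5% of all genes, and 1 of the 7, PDLIM3, lay under the mark on all 9 arrays. SYNM, an intermediate filament protein that partners desmin, was at least 2.64-fold lower, with 1 PGC array under the mark (-1.40 ± 0.32 SE, limma adjusted p = 0.0041). It measured 4.50, 3.15 and 2.87 in PGC replicates 1, 2 and 3 against 4.34 to 5.34 in GSC, so that PGC replicate 1 lay inside the GSC range. VCL, vinculin of the actin anchorage sites, was lower by 0.69 ± 0.09 on the log2 scale, and all 3 of its probe sets were called lower. TPM1, a tropomyosin, was lower by 0.54 ± 0.10, and 6 of its 8 probe sets were called lower. GUCY1A3 (now GUCY1A1), a subunit of the nitric oxide receptor, was at least 1.29-fold lower, with 1 of 5 probe sets called. Without PGC replicate 3, 12 of the 23 were lower (22.9% of all genes).

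The 2 subunits of the large calcium-activated potassium channel went opposite ways. KCNMB1, its smooth muscle beta subunit, measured 2.60, 3.01 and 4.44 in PGC replicates 1, 2 and 3 against 4.44 to 4.81 in GSC and was at least 2.22-fold lower (limma adjusted p = 0.0068). KCNMA1, the pore subunit, measured 6.91 and 5.62 in PGC replicates 2 and 3, and slightly more than replicate 2 in replicate 1, against 3.45 to 4.66 in GSC. It was 5.24-fold higher (change 2.39 ± 0.32 SE, limma adjusted p = 1.495e-04). The others that were higher were AOC3, an amine oxidase of vessel walls and fat, at 2.05 ± 0.27 on the log2 scale (1 of 2 probe sets called), and ACTN1, an actin cross-linker, at 0.42 ± 0.10 (1 of 3).

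Of 22 regulators of the serum response and of muscle fate, 7 were lower in PGC, 2 were higher and 13 did not pass, with a median of -0.17. The shares were 31.8% and 9.09%, beside 19.5% and 22.5% of all genes. Among the 7, ELK4 (-0.31) lost its call when any one of 7 arrays was left out, and 0 of its 5 probe sets were called in the fit over all probe sets. FHL5 (-0.69) had 7 of 9 values under the mark and lost its call without PGC replicate 1 or 2. SRF itself lay at 5.75 to 6.37 in PGC and 5.84 to 6.20 in GSC and did not pass (-0.07 ± 0.14 SE, limma adjusted p = 0.7122). Of its actin-sensing partners, MKL1 (now MRTFA) did not pass (-0.09 ± 0.25 SE, limma adjusted p = 0.8065). Without PGC replicate 3 it was -0.52 and passed (adjusted p = 0.0036), and without PGC replicate 2 it was 0.17 and did not. MKL2 (now MRTFB) was 1.72-fold lower (-0.79 ± 0.19 SE, limma adjusted p = 0.0061). FHL2, an LIM-domain co-factor, measured 4.63, 5.07 and 6.08 in PGC replicates 1, 2 and 3 against 6.80 to 7.24 and was 3.41-fold lower (adjusted p = 1.974e-04 by limma). MEF2A, a factor of muscle genes, was 2.68-fold lower, with 4 of 5 probe sets called, and GATA6, a factor of visceral mesoderm, 2.66-fold lower. KLF5, a factor of growing smooth muscle and of epithelia, was 3.46-fold higher (1.79 ± 0.16 SE, limma adjusted p = 1.037e-05). The other gene called higher, BARX1, lay under the mark on all 9 arrays.

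Of 19 genes of the actin and myosin machinery of non-muscle cells, 10 were lower in PGC, 2 were higher and 7 did not pass, with a median of -0.37. As shares these were 52.6% and 10.5%, beside 19.5% and 22.5% of all genes. The 2 sets differ in brightness: 0 of the 19 lay under the mark on all 9 arrays, against 2320 of the 13009 genes. Shares of this and the other lists were not matched for brightness. MYH9, a non-muscle myosin heavy chain, measured 7.03, 7.52 and 7.66 in PGC replicates 1, 2 and 3 against 8.74 to 9.29 in GSC. It was 3.00-fold lower (-1.58 ± 0.16 SE, limma adjusted p = 1.902e-05), and its relative MYH10 1.70-fold lower (adjusted p = 6.727e-04). ROCK2, a kinase that keeps myosin light chains phosphorylated, was 2.20-fold lower, with 2 of 4 probe sets called. MYL6, a myosin light chain, was lower by 0.83, a call lost without PGC replicate 1, PGC replicate 2 or GSC replicate 2. The 2 that were called higher link actin to the membrane: EZR by 0.56 ± 0.11, and MSN by 0.29 ± 0.10. For MSN, 0 of 6 probe sets were called higher and 2 were called lower in the fit over all probe sets. Its call was also ended by leaving out any one of 8 of the 9 arrays. Without PGC replicate 1 the number lower was 6 and without PGC replicate 2 it was 5, beside 1914 and 2111 of all 13009 genes.

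Of 30 striated muscle genes, 5 were lower in PGC, 8 were higher and 17 did not pass, with a median of -0.019, and 15 of the 30 lay under the mark on all 9 arrays. The called shares, 16.7% lower and 26.7% higher, were near the 19.5% and 22.5% of all genes, so that the counts say little about this list. Beside ACTA1 and ACTC1, TNNC1, the troponin C of slow and cardiac muscle, measured 6.46, 6.31 and 6.30 in PGC replicates 1, 2 and 3 against 3.46 to 4.57 in GSC, 5.28-fold higher (2.40 ± 0.20 SE, limma adjusted p = 6.204e-06). ACTN2, a sarcomeric actinin, was called higher (0.88 ± 0.30 SE, limma adjusted p = 0.0353), a call lost when any one of 6 arrays was left out. The other 4 that were called higher, MYL3, MYOD1, MYF6 and XIRP1, were under the mark on all 6 GSC arrays and on at least 2 of the 3 PGC arrays. MYL2, a cardiac and slow muscle light chain, was 2.49-fold lower, measuring 2.94, 3.36 and 4.51 against 4.69 to 5.07. The others that were lower were MYH7 (-0.84), TNNT3 (-0.83), MYL4 (-0.65, lost without PGC replicate 1 or 2) and MYL1, which lay under the mark throughout and lost its call when any one of 5 arrays was left out. Without PGC replicate 2, 3 were lower, beside 2111 of all 13009 genes.

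**Figure D5:**
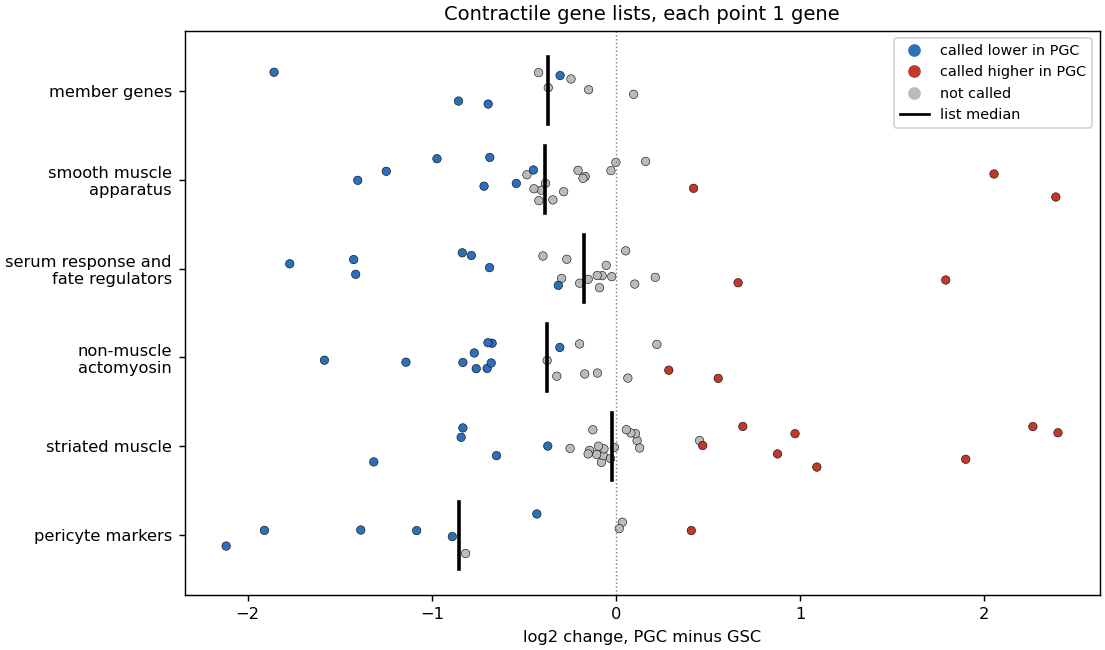
Log2 change, PGC minus GSC, of each gene in 6 lists: blue points are called lower in PGC, red points higher, grey points not called, and black bars mark list medians (vertical scatter within a list has no meaning). The medians run from -0.85 for pericyte markers to -0.019 for striated muscle genes.

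The genes whose values ran most like those of CALD1 over the 9 arrays, by Pearson correlation on the log2 scale, were SMAD5 (0.995), CDK2AP1 (0.994), ANGPTL1 (0.993), TEK (0.993) and TMEM204 (0.992). The arrays form 2 groups, so that these values mostly restate the difference between the fractions, and no test is given. SMAD5, a mediator of BMP signals, measured 5.56, 6.01 and 6.61 in PGC replicates 1, 2 and 3 and 6.94 to 7.40 in GSC, in the same order of PGC arrays as CALD1. TEK, an endothelial receptor, measured 3.81, 4.62 and 5.59 against 6.24 to 6.70. For ACTA2, whose own values lay under the reporter mark, the nearest genes were LBP (0.970), CYB5R1 (0.956), LY6E (0.949), FOLR1 (0.948) and NFIX (0.945), and only LBP among these was called lower (-0.59), a call lost without PGC replicate 1 or 2.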

How the data were processed

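RNA from 9 sorted preparations (3 PGC, 6 GSC) had been measured on Affymetrix chicken genome arrays. The deposited values were 1 log2 value per probe set and array, made by the authors. The submitters' processing notes name RMA, a method of background correction, between-array normalization and probe summary, with no version. The log2 scale was taken from the range of the values, and RMA compresses low values, so that folds of dim genes are understated.

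Of 38535 probe sets, 96 AFFX controls were left out of the tests. Symbols came from the platform annotation (1 symbol for 27168 tested probe sets, several for 177, which stayed unnamed). A RefSeq gene table of assembly GRCg7b was used for names only and changed 0 symbols. No sequences and no genome coordinates are reported, as the values belong to probe sets. The brightest probe set stood for each of 13009 genes. Genes, and separately all probe sets, were fitted on cell fraction over all 9 arrays with limma 3.58.1 (lmFit, eBayes, two-sided) in R 4.3.3, adjusted by Benjamini and Hochberg over the whole table and called at 0.05. The fit was tested on simulated data, but no setting or result of that test is given here. Where arrays of the dimmer group lay under the reporter mark, they were set at the mark for an "at least" fold. No fold is given where both group means lay under it.

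The members, gene lists and rules were chosen with earlier results of these data known. Named are all members, fixed check genes (DDX4, DAZL, GATA4, LHX9, ACTB, ACTG1, SRF, MRTFA), up to 4 called genes with the largest change in each list, all genes of called counts of 5 or fewer, and the 5 genes most like CALD1 and ACTA2. Not all of these top genes are described for the germ cell, gonadal somatic, endothelial and mesonephric lists, though the outlier check covered them. Further list genes (VCL, TPM1, GUCY1A3, PDLIM3, MKL2, ELK4, FHL5, RGS5, CSPG4, EBF1, MCAM, LHX1) were chosen after their values were seen. MRTFA, MRTFB and GUCY1A1 were found under older symbols. Alternatives were a replicate block, each array left out, 3 of the 6 GSC arrays, other probe set choices, a filter on dim genes, renormalization, other variance models and another adjustment. Same-numbered PGC and GSC arrays deviated together at r of 0.17, -0.26 and 0.12 for numbers 1, 2 and 3, so the numbers were not taken as pairs.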

Additional observations from a re-analysis of the deposited data

Results flagged for a closer look

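In 3 of the 62 named genes, 1 of the 6 GSC arrays stood further from the rest than the 95% critical value of Dixon's test allows, where chance flags about 5% of such groups. TAGLN measured 5.07 in GSC replicate 2, against at most 4.75 in the other GSC arrays. Without that array the change of TAGLN was -0.35 and did not pass. The endothelial receptor gene KDR measured 6.52 in GSC replicate 1, against at most 5.92 in the others, and RHAG, a red cell membrane gene, measured 6.07 there, against at most 5.55.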

How the results depend on the processing

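CALD1 kept its direction and its call under all 20 alternatives (-2.49 to -1.40 on the log2 scale). ACTG2 was called in 15 of 20, HAND2 in 13 of 20 and MYOCD in 8 of 19, none of them with a change of direction. The alternatives share arrays and are not separate results. The replicate block and GSC replicates 1 to 3 only gave the same changes (CALD1 -1.62, ACTG2 -0.78, HAND2 -0.98) with different adjusted p. DES turned to 8.465e-04 without PGC replicate 1 and without PGC replicate 2, at a size that is next to 0, and was -0.4464 without PGC replicate 3. With each array left out in turn, the number of member genes called lower ran from 1 to 7, that of member probe sets from 5 to 12 (9 with all arrays), that of all genes called lower from 1914 to 2983 and higher from 2298 to 3321. Lower and higher calls then ran from 6 to 12 and 3 to 3 for the smooth muscle apparatus, 5 to 9 and 2 to 2 for the regulators, 5 to 11 and 1 to 2 for non-muscle actomyosin, 3 to 5 and 7 to 9 for striated muscle, and 5 to 7 and 0 to 1 for pericyte markers, alternatives chosen after the data had been seen. With the replicate number as a block, 1 member gene (CALD1) and 4 member probe sets were lower, and 1287 genes were lower and 1845 higher in all, with few residual degrees of freedom. With GSC replicates 1 to 3 only, 1 member gene, 3 member probe sets and 1531 genes were lower and 1863 genes higher, and with GSC replicates 4 to 6 only, 1 member gene, 6 member probe sets and 1784 genes were lower and 2188 genes higher. The filter on dim genes left out ACTA2, MYH11 and MYOCD, which then had no value. With array quality weights, 7 member genes were lower, beside 2836 lower and 3187 higher among all genes. The 3 added were TAGLN, DES and ACTA2, the last under the reporter mark on all 9 arrays. The same 3 were added when PGC replicate 3 was left out. The weight of PGC replicate 3 was 0.20, the lowest, against 0.67 to 2.76 for the other arrays. The 2 settings are therefore not separate results. The cause of these changes was not tested, beyond the fewer arrays of some fits. Where a gene lies under the reporter mark, signal over background limits what can be said.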

Other observations

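Among contractile genes not described above, chosen after their values were seen, DMD, the large muscle cytoskeletal protein dystrophin, was far above the reporter mark in both fractions, at 8.37 to 8.54 in PGC and 8.10 to 8.57 in GSC, and did not pass (0.13 ± 0.12 SE, limma adjusted p = 0.4437). MYL9, the light chain that myosin light chain kinase phosphorylates, measured 7.42, 7.27 and 8.13 in PGC replicates 1, 2 and 3 against 7.62 to 8.03 in GSC and did not pass (-0.17 ± 0.17 SE, limma adjusted p = 0.4822). Without PGC replicate 3 MYL9 was called lower (-0.43, limma adjusted p = 0.0141). Without PGC replicate 1 its change was -0.07 and without PGC replicate 2 it was 8.169e-04, and neither passed. CNN3, a calponin of non-muscle cells, measured 9.40, 9.82 and 9.92 against 10.41 to 10.64 and was 1.69-fold lower (limma adjusted p = 4.807e-04), with both of its probe sets called. TMSB4X, the actin-binding thymosin beta, was 1.62-fold lower, with all 3 of its probe sets called.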
